A study of Mus musculus with 6 samples.

Results

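Nuclear receptors are transcription factors that bind DNA through a pair of zinc fingers and, in most members, change their activity when a small lipid-soluble ligand occupies a pocket in the same protein. In liver they read fatty acids, oxysterols, bile acids, thyroid hormone, retinoic acid, steroid hormones and foreign compounds, and many act as a pair with a retinoid X receptor. The set described here holds 35 genes of this superfamily, picked by gene symbol with no threshold on a measured value, out of 21899 genes in the files. Of the 35 genes, 34 passed the filter on low counts and were tested. The remaining gene, Hnf4g, had between 1 and 11 reads per library.

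Liver RNA came from 6 C57BL/6 mice, an inbred laboratory strain, 6 weeks old when they were divided. The 3 control mice received the feed labelled CSAA for 6 weeks. The other 3 received the feed labelled CDAA, brought in through 1 week of mixed feed and given for 6 weeks. CSAA is the usual name of an amino acid-defined diet with choline, CDAA that of its choline-free counterpart, which is used to produce fatty liver with inflammation and fibrosis. No further allele or agent is given, all mice share the strain, and the hour of sampling is not given in the sources used here. Each replicate is the liver of 1 mouse, and p-values measure the spread between these livers.

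The 6 libraries held 14580676 to 17367173 reads over genes. Hepatocyte identity was clear, with Alb, serum albumin, between 49640 and 84250 CPM (counts per 1000000 reads on the TMM scale, a scaling of library sizes). Markers of other liver cells differed between the diets, and in bulk RNA fewer cells of a type and less RNA per cell cannot be told apart. The summed level of 13 Kupffer cell and macrophage markers was 875.1 to 1202 CPM in CSAA and 391.8 to 538.1 CPM in CDAA, with 9 of 13 tested markers lower. Within this list Adgre1 did not overlap between the diets (55.3 to 74.6 and 20.6 to 31.5 CPM). Clec4f, the marker of resident Kupffer cells, did overlap (130.5 to 253.0 CPM in CSAA and 127.4 to 158.1 CPM in CDAA). The 10 stellate cell and fibroblast markers summed to 1048 to 1345 CPM in CSAA and 479.3 to 765.8 CPM in CDAA, with 6 of 10 lower. The 8 sinusoidal endothelial markers summed to 507.4 to 544.5 and 400.9 to 436.7 CPM, with 3 of 8 lower, and the 10 hepatocyte markers to 61350 to 80770 and 90860 to 102500 CPM, with 1 of 10 higher. The 8 lymphocyte markers summed to 23.7 to 34.0 and 6.09 to 9.48 CPM, with 5 lower, and the 5 neutrophil markers to 13.9 to 29.6 and 5.63 to 7.18 CPM, with both tested markers lower. The 5 cholangiocyte markers summed to 10.3 to 27.8 CPM in CSAA and 8.82 to 11.2 CPM in CDAA. Of 4 tested cholangiocyte markers 0 passed in edgeR, 1 had an unadjusted p under 0.05, and 0 passed in DESeq2 or limma. CSAA replicate 1 alone gave the high end, and without it the median of the tested cholangiocyte markers turned from -0.78 to 0.17. No marker of these lists was at 0 in every library. The lower macrophage, lymphocyte and stellate sums in CDAA run opposite to what this diet is used to produce. The groups carry their labels here, an exchange of labels between the groups cannot be told from the files, and it would turn the sign of every difference given below. CDAA replicate 1 stood apart by pancreatic acinar transcripts (8 markers summing to 1811 CPM, beside 14.6 CPM or less in the others) and striated muscle transcripts (6 markers, 231.8 CPM against at most 0.9345). Only 1 gene of each of these lists passed the filter on low counts, and neither passed in edgeR. Each had an unadjusted p under 0.05 in edgeR, and the muscle gene passed in DESeq2. Their log2 fold changes were 3.23 (acinar) and 2.80 (muscle).

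Of the 34 tested nuclear receptor genes, 2 were higher in CDAA (Nr6a1 and Thrb), 1 was lower (Rara) and 31 did not pass an edgeR adjusted p of 0.05. That is 8.82% of the tested receptors, whereas 14.8% of all 12845 tested genes passed, 4.25% as higher and 10.5% as lower. None of the receptors had a 2-fold difference in either direction, beside 12.1% of all tested genes. With library size alone 5 did (Rara, Rarb, Rarg, Pparg and Nr4a1, all lower), beside 15.7% of all genes, and 0 to 3 did when a library was left out. At an unadjusted p under 0.05 there were 11 receptors, 6 higher and 5 lower, a share of 32.4% beside 30.6% of all tested genes. The libraries of the diets did not overlap for 11 receptors, again 32.4%, beside 36.1% of all tested genes. The median log2 fold change was 0.11 over the receptors and 0.00 over all tested genes, and the median absolute value was 0.29 over the receptors and 0.26 over all. For 25 of the 34 receptors the 95% interval of the difference lay within 1 log2 unit of 0 on both sides. With TMM scaling 23 receptors had a positive and 11 a negative fold change, and with library size alone this turned to 11 positive and 23 negative. That scaling moved the median of all tested genes by -0.28.

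**Figure D1:**
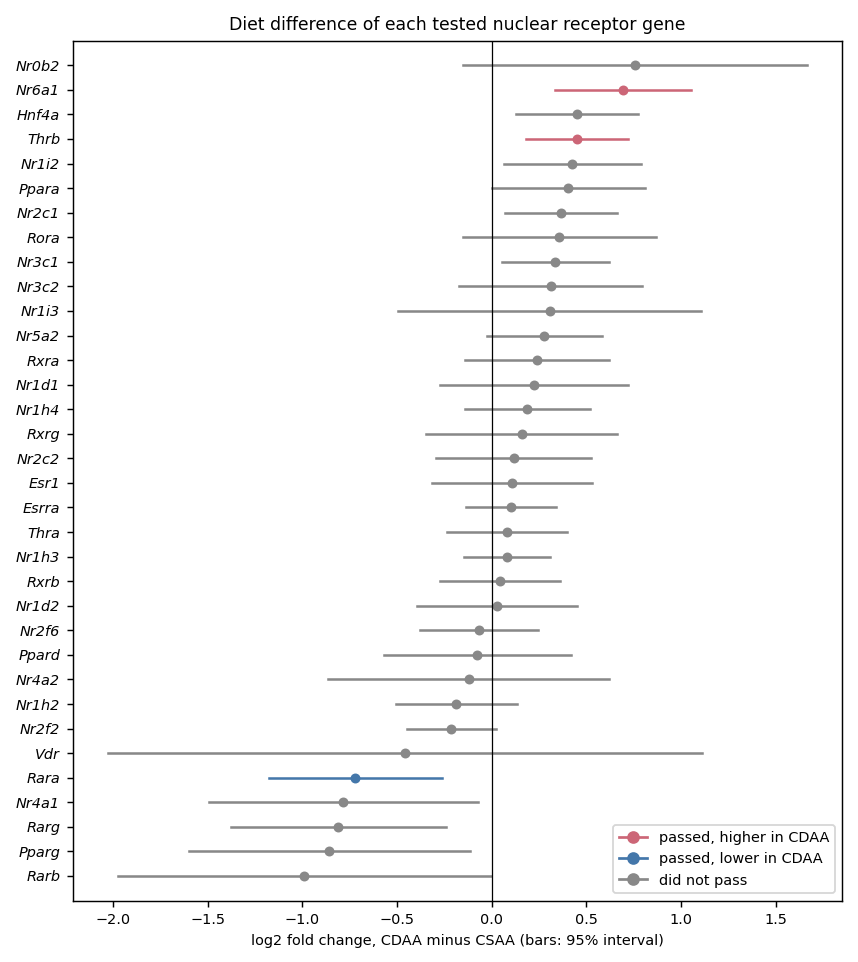
Log2 fold change of each tested nuclear receptor gene, CDAA minus CSAA, with its 95% interval from edgeR, ordered by size (3 libraries per diet). Nr6a1 and Thrb passed as higher and Rara as lower, and the other 31 intervals belong to genes that did not pass.

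Short stretches of DNA near the starts of the 3 receptors that passed are shown because many, not all, nuclear receptors bind the half-site AGGTCA. All sites of that word and of the E-box found for these 3 genes are printed. Promoter entries of RefSeq on GRCm38.p6, 250 bases before to 50 bases after each start, were found for 32 of the 35 receptors (47 entries). The half-site was searched on both strands and was present in 11 of the 47 entries (23.4%), belonging to 10 receptors, and in 16.3% of all 32851 entries. The E-box CACGTG, the word bound by CLOCK and BMAL1, was in 5 of 47 (10.6%) and in 7.15% of all entries. The 2 words do not overlap in the windows printed. Capitals mark the word found, read 5′ to 3′ on the strand of the gene, and TGACCT is the half-site on the other strand. Positions count from the start of the transcript. A match describes letters only.
Nr6a1, chr2:38784589-38784618, minus strand, word from position -91: ccatgcacactgTGACCTtagagcctgaac
Nr6a1, chr2:38784543-38784572, minus strand, word from position -45: cggcttgtaaacTGACCTgtgaggatgacg
Thrb, chr14:17660764-17660793, plus strand, word from position -184: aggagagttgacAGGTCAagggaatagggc
Thrb, chr14:17981439-17981468, plus strand, E-box from position -193 of another start: tcatttcctaatCACGTGgaaagaggttaa
Rara, chr11:98937696-98937725, plus strand, E-box from position -10 of 1 start and 13 of another: tttcagcctctgCACGTGactcgccatggc
Rara, chr11:98964893-98964921, plus strand, word from position 34 of another start: gcagattgcagcAGGTCAgtcctttggac

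The build of these windows is not that of the deposited coordinates. In the deposited files, whose headers name no build, Nr6a1 (ENSMUSG00000063972) lies on chromosome 2 from 38613382 to 38817700 on the minus strand. Thrb (ENSMUSG00000021779) lies on chromosome 14 from 4431611 to 4809435 and is listed on the minus strand, not the plus strand of GRCm38.p6. Rara (ENSMUSG00000037992) lies on chromosome 11 from 98818644 to 98865768 on the plus strand.

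Nr6a1 encodes germ cell nuclear factor, an orphan receptor that represses pluripotency genes in the embryo. CSAA replicates 1 to 3 held 10.9, 12.9 and 10.0 CPM and CDAA replicates 1 to 3 held 16.4, 20.7 and 17.6 CPM. All 3 CDAA livers were above all 3 CSAA livers. The mean rose from 11.3 ± 1.49 to 18.2 ± 2.18 CPM (SD, n = 3 each), which is 0.69 ± 0.15 on the log2 scale (± SE here and below, adjusted p = 0.0238 in edgeR). It passed in 3 of 6 fits that each left out 1 library and missed the threshold without CSAA replicate 1 (edgeR adjusted p = 0.0847), CSAA replicate 3 (0.0628) or CDAA replicate 2 (0.0823).

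Thrb encodes thyroid hormone receptor beta, the main thyroid hormone receptor of hepatocytes. It was at 37.2, 44.5 and 42.1 CPM in CSAA and at 49.8, 59.9 and 59.2 CPM in CDAA. Here too the diets did not overlap, and the lowest CDAA liver was replicate 1. The mean rose from 41.3 ± 3.73 to 56.3 ± 5.67 CPM (log2 change 0.45 ± 0.12, adjusted p = 0.0391 in edgeR). This call held in 1 of the 6 fits that left out a library, the one without CDAA replicate 1, and in the others the edgeR adjusted p ran up to 0.122, reached without CSAA replicate 1. The fold change was 0.17 on library size alone. For the hepatocyte marker list the median was 0.45, and 0.17 on library size alone. The part of hepatocyte content in the Thrb difference was not tested.

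Thra, the other thyroid hormone receptor gene, was at 14.8, 16.1 and 17.5 CPM in CSAA and 17.2, 18.9 and 15.1 CPM in CDAA, and these ranges overlap. Its log2 fold change was 0.08 (95% interval -0.23 to 0.40, edgeR adjusted p = 0.729). Per kb of listed gene length Thrb supplied 61.5 ± 1.72% of the summed Thra and Thrb level in CSAA and 67.3 ± 3.41% in CDAA, without overlap (exact two-sided permutation p = 0.1, the smallest that 3 against 3 libraries allow). Thra shares 1075 bases of its span with Nr1d1 on the opposite strand, and Nr1d1 stood at 111.9 CPM on average against 16.6 CPM for Thra. The strand setting of the counting is not given in the sources used here, so reads of this stretch cannot be assigned to either gene. Of 7 genes known as thyroid hormone targets 1 was higher, Me1, malic enzyme, which rose from 235.4 ± 15.4 to 659.0 ± 38.2 CPM (log2 change 1.49 ± 0.12, adjusted p = 0.00121 in edgeR). The list median was 0.72, and 1 to 4 of its genes were higher when single libraries were left out. Over all tested genes 4.25% were higher with every library kept.

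The retinoic acid receptors all had lower means in CDAA, and 1 of 3 passed. These receptors switch on target genes when all-trans retinoic acid binds, and without ligand they hold corepressors on the DNA. Rara, the alpha isotype, was at 27.3, 29.6 and 22.9 CPM in CSAA and at 11.9, 20.4 and 16.1 CPM in CDAA. The highest CDAA liver stayed below the lowest CSAA liver. The mean fell from 26.6 ± 3.40 to 16.1 ± 4.21 CPM (log2 change -0.72 ± 0.20, adjusted p = 0.0468 in edgeR). Rara passed without CDAA replicate 2 (edgeR adjusted p = 0.0335) and missed the threshold in the other 5 fits that left out a library, with the highest edgeR adjusted p of 0.152 without CSAA replicate 1.

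Rarg, the gamma isotype, was at 19.7, 12.1 and 16.0 CPM in CSAA and 6.47, 10.7 and 10.1 CPM in CDAA. Its diets did not overlap either, and its log2 fold change of -0.81 ± 0.25 did not pass (edgeR adjusted p = 0.0628). Rarb, the beta isotype, itself a target of retinoic acid and expressed in stellate cells, was at 3.30, 4.59 and 2.61 CPM in CSAA and 0.837, 2.52 and 1.92 CPM in CDAA, again without overlap (log2 change -0.99 ± 0.43, adjusted p = 0.161 in edgeR). The Rarb span overlaps that of Top2b on the opposite strand by 4624 bases, and Top2b was at 66.1 CPM on average. Among the 3 isotypes Rara supplied 58.1 ± 5.72% of the per-kb level in CSAA and 60.1 ± 2.44% in CDAA (exact permutation p = 0.7, where 3 against 3 libraries allow none below 0.1). Of 6 tested genes known as retinoic acid targets, 2 were lower and 0 higher, with a median of -0.75, beside 10.5% of all genes lower. Tgm2, a transglutaminase, fell from 163.3 ± 9.34 to 98.6 ± 7.10 CPM (log2 change -0.73 ± 0.10, adjusted p = 0.00403 in edgeR). Leaving out single libraries gave 1 to 4 lower targets. The stellate and macrophage marker sums given above were also lower in CDAA, and their part in these differences was not tested.

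The 3 retinoid X receptors, the shared partners of many other receptors, showed no difference that passed. Rxra, the alpha isotype, was at 405.8, 380.3 and 550.5 CPM in CSAA and 586.4, 498.7 and 492.8 CPM in CDAA. CSAA replicate 3 lay among the CDAA livers, and the log2 fold change was 0.24 (95% interval -0.14 to 0.62). Rxrb held 29.8 to 40.3 CPM in CSAA and 33.2 to 38.9 CPM in CDAA, and Rxrg 3.92 to 5.36 and 5.10 to 6.11 CPM. Per kb, Rxra made up 86.5 ± 3.54% of the RXR level in CSAA and 88.0 ± 1.71% in CDAA (exact permutation p = 0.5).

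Of the peroxisome proliferator-activated receptors, Ppara had a positive and Pparg a negative fold change, neither passed, and the difference between them was tested only through their shares. Ppara, the fatty acid sensor that drives hepatic fatty acid oxidation, was at 116.6, 136.6 and 134.7 CPM in CSAA and 187.1, 200.0 and 126.0 CPM in CDAA. CDAA replicates 1 and 2 exceeded every CSAA liver and CDAA replicate 3 lay inside the CSAA range. The log2 fold change was 0.40 ± 0.18 (edgeR adjusted p = 0.163), and it was 0.58 and passed without CDAA replicate 3 (edgeR adjusted p = 0.0165). Pparg, the lipid-storing isotype of fat cells that is also found in macrophages and in fatty hepatocytes, was at 20.3, 32.0 and 19.1 CPM in CSAA and 8.14, 11.9 and 19.3 CPM in CDAA. CDAA replicate 3 again lay with the CSAA livers. The log2 fold change was -0.86 ± 0.32 (edgeR adjusted p = 0.114), and without CDAA replicate 3 it was -1.24 (edgeR adjusted p = 0.0246). Ppard, the ubiquitous delta isotype, held 9.34 to 15.1 CPM in CSAA and 10.1 to 13.5 CPM in CDAA.

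Ppara supplied 77.6 ± 3.10% of the per-kb PPAR level in CSAA and 87.3 ± 6.41% in CDAA, and Pparg 18.4 ± 4.0% and 9.36 ± 5.73% (exact permutation p = 0.2 for both). CDAA replicate 3 stood apart with 80.0% Ppara and 15.9% Pparg, values inside the CSAA range, while CDAA replicates 1 and 2 had 91.4% and 90.6% Ppara. Over 14 isotype shares of 8 receptor groups the smallest exact permutation p was 0.1 and the lowest value adjusted by Benjamini-Hochberg was 0.778.

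**Figure D2:**
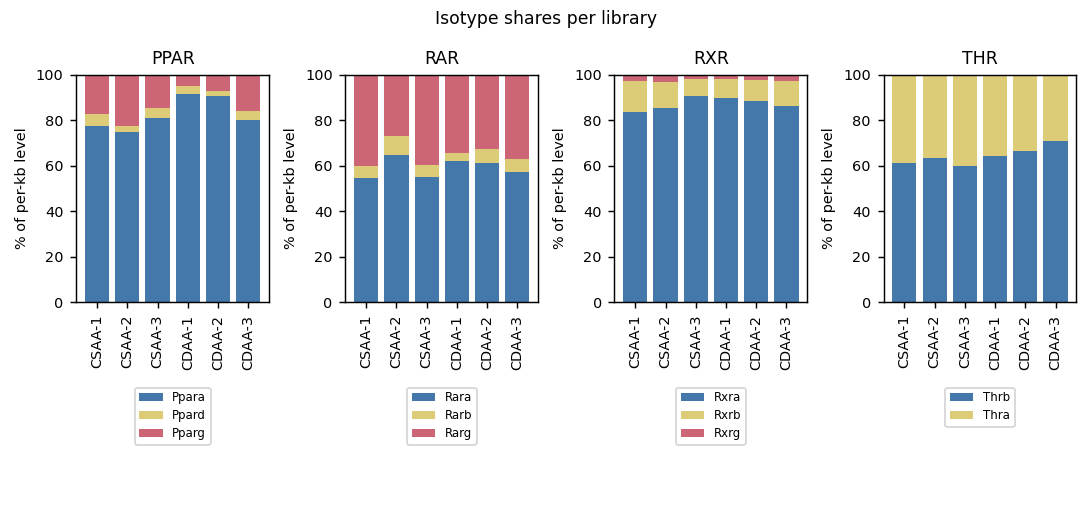
Percent of the summed per-kb level (CPM per kb of listed gene length) contributed by each isotype of the PPAR, retinoic acid (RAR), retinoid X (RXR) and thyroid hormone (THR) receptors, 1 bar per library. Ppara took 91.4% and 90.6% in CDAA replicates 1 and 2 and 80.0% in CDAA replicate 3, beside a CSAA mean of 77.6%.

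Genes downstream of the PPARs were read from lists of known targets. Of 22 PPAR alpha targets 5 were higher and 0 lower (median 0.49), beside 4.25% of all genes higher. Fabp1, the liver fatty acid binding protein, rose from 1670 ± 346.9 to 3109 ± 136.0 CPM (log2 change 0.90 ± 0.18, adjusted p = 0.016 in edgeR). Creb3l3, a hepatic transcription factor of fasting, rose by 0.54 ± 0.12 (edgeR adjusted p = 0.0218). With single libraries left out 0 to 6 of these targets were higher and 0 to 1 lower. Without CDAA replicate 3, the fit in which Ppara passed, 3 were higher and 1 lower. With library size alone 2 were higher (median 0.21). DESeq2 called 11 higher, and in that fit 21.4% of all tested genes passed in either direction. For the hepatocyte marker list the median was 0.45, and a difference between the lists was not tested.

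Of 6 tested PPAR gamma targets 3 were lower and 0 higher (median -1.22), beside 10.5% of all genes lower. Over the 14 other fits the median ran from -1.50 with library size alone to -0.39 with no filter on low counts, where 9 were tested. Lpl, lipoprotein lipase, fell from 149.9 ± 40.2 to 42.4 ± 14.3 CPM (log2 change -1.82 ± 0.28, adjusted p = 0.00614 in edgeR). Cd36, a fatty acid and scavenger receptor, fell from 188.6 ± 16.6 to 79.8 ± 43.5 CPM (log2 change -1.24 ± 0.32, adjusted p = 0.0396 in edgeR), and Cidec, a droplet fusion protein, by 1.19 ± 0.32 on the log2 scale (edgeR adjusted p = 0.0428). Between 1 and 2 of these genes were lower when a library was left out, and Lpl passed in all 6 such fits. Lpl and Cd36 are also expressed by macrophages, whose 13 markers had a median log2 fold change of -2.04, and their part in these falls was not tested.

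The sterol and bile acid receptors were abundant and showed no difference that passed. Nr1h4 encodes FXR, the bile acid receptor. It was at 111.4, 145.4 and 133.1 CPM in CSAA and 145.8, 170.0 and 128.3 CPM in CDAA, with overlapping ranges (log2 0.19, 95% interval -0.14 to 0.52, edgeR adjusted p = 0.422). Nr1h3 encodes LXR alpha, the oxysterol receptor of hepatocytes and macrophages. Its values lay close together, 96.7, 98.5 and 104.7 CPM in CSAA and 98.9, 115.7 and 102.7 CPM in CDAA (log2 0.08, 95% interval -0.15 to 0.31). Nr1h2, the widely expressed LXR beta, held 55.6 to 57.5 CPM in CSAA and 42.5 to 60.6 CPM in CDAA (log2 -0.19, edgeR adjusted p = 0.412). LXR alpha made up 70.2 ± 0.628% of the per-kb LXR level in CSAA and 74.0 ± 4.53% in CDAA (exact permutation p = 0.4).

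Nr0b2 encodes SHP, a receptor without a DNA-binding domain that FXR induces and that represses bile acid synthesis. It was at 23.1, 34.7 and 34.6 CPM in CSAA and 35.9, 90.2 and 30.0 CPM in CDAA. CDAA replicate 2 was alone at its level, and the other 2 CDAA livers lay in or just above the CSAA range. The log2 fold change was 0.76 ± 0.39 (edgeR adjusted p = 0.239) and 0.10 without CDAA replicate 2. Nr5a2, LRH-1, a phospholipid-binding receptor that supports bile acid synthesis and is also expressed in pancreatic acinar cells, held 69.5 to 80.7 CPM in CSAA and 82.5 to 108.7 CPM in CDAA without overlap (log2 change 0.28 ± 0.13, adjusted p = 0.199 in edgeR). CDAA replicate 1, the library with acinar transcripts, held 83.3 CPM, between the other livers of its group. The part of acinar RNA in this level was not tested.

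Of 9 tested FXR targets 2 were higher and 0 lower (median 0.20), namely Slc10a1, the bile acid uptake carrier that FXR lowers through SHP (log2 change 1.06 ± 0.24, adjusted p = 0.0253 in edgeR), and Fetub, a secreted fetuin (log2 change 0.64 ± 0.15, adjusted p = 0.0279 in edgeR). Between 0 and 2 were higher with single libraries left out. Because the list includes genes that FXR lowers, such as Slc10a1, its count and median give no direction for FXR. Of 13 LXR targets 2 were higher and 1 lower (median 0.39). Scd1, stearoyl-CoA desaturase, had a log2 fold change of 1.70 ± 0.26 and Fasn, fatty acid synthase, one of 1.29 ± 0.35. Abcg1, a sterol exporter of macrophages, fell from 31.2 ± 3.07 to 11.3 ± 1.76 CPM (log2 change -1.46 ± 0.15, adjusted p = 0.00155 in edgeR). The macrophage marker sum was also lower in CDAA, and its part in this fall was not tested.

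The receptors for foreign compounds did not pass. Nr1i2 encodes PXR, which induces drug-metabolising enzymes. It was at 67.3, 92.5 and 71.8 CPM in CSAA and 87.5, 106.0 and 117.8 CPM in CDAA, where only CSAA replicate 2 reached into the CDAA range (log2 change 0.43 ± 0.16, adjusted p = 0.108 in edgeR). Nr1i3 encodes CAR, its close relative. Its CSAA libraries were 10.2, 30.9 and 20.4 CPM, a spread wider than the gap between the diets, and its CDAA libraries 22.3, 30.3 and 23.5 CPM (log2 0.31, 95% interval -0.49 to 1.11). Nr1i3 overlaps Tomm40l on the opposite strand by 4691 bases, and Tomm40l was at 11.6 CPM on average. Of 11 tested CAR and PXR targets 1 was higher, Cyp2c29, a cytochrome P450 of a multigene family (log2 change 2.25 ± 0.61, adjusted p = 0.0452 in edgeR), and the list median was 0.39. Without CDAA replicate 3 the median was -0.07, with 1 target higher and 2 lower. Vdr, the vitamin D receptor, found in liver mainly outside hepatocytes, was between 0.213 and 0.990 CPM in all 6 libraries, a depth at which its 95% interval ran from -2.03 to 1.11.

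Hnf4a, the master regulator of hepatocyte genes, was the most abundant receptor. It was at 641.3, 639.5 and 610.4 CPM in CSAA and 738.0, 851.8 and 994.3 CPM in CDAA. Every CDAA liver exceeded every CSAA liver, and the CDAA livers spread more widely (SD 128.4 against 17.4 CPM). The log2 fold change was 0.45 ± 0.14 (95% interval 0.13 to 0.77) and did not pass in edgeR (adjusted p = 0.0675), while DESeq2 called it (adjusted p = 0.00542). DESeq2 called 21.4% of all tested genes and edgeR 14.8%. On library size alone the log2 fold change of Hnf4a was 0.17 and did not pass (edgeR adjusted p = 0.436). Hnf4a also missed the threshold in every fit that left out a library (edgeR adjusted p from 0.0611 to 0.154). Its paralog Hnf4g had too few reads to test. The hepatocyte marker list had a median of 0.45, and of 0.17 on library size alone. The part of hepatocyte content in the differences of Hnf4a and its targets was not tested. Of 12 HNF4 alpha targets 2 were higher (median 0.31), Mttp, the lipoprotein assembly protein (log2 change 0.71 ± 0.12, adjusted p = 0.00836 in edgeR), and Serpina1a, an antiprotease of a multigene family (log2 change 0.61 ± 0.16, adjusted p = 0.0433 in edgeR).

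Among the receptors of the clock, Nr1d1 and Nr1d2 encode the REV-ERB repressors and Rora encodes a ROR activator of the same DNA element. Nr1d1 was at 109.4, 112.5 and 87.8 CPM in CSAA and 81.0, 147.2 and 133.3 CPM in CDAA. The CDAA livers lay on both sides of the CSAA livers (log2 0.22, 95% interval -0.27 to 0.72, edgeR adjusted p = 0.532). Nr1d2 held 79.5 to 125.5 CPM in CSAA and 84.5 to 113.4 CPM in CDAA, with a log2 fold change of 0.03 (95% interval -0.39 to 0.45). Rora was at 61.5 to 108.8 and 97.3 to 138.1 CPM (log2 change 0.36 ± 0.22, adjusted p = 0.318 in edgeR). Of 12 clock and REV-ERB target genes 1 was higher, Elovl3, a fatty acid elongase (log2 change 2.04 ± 0.31, adjusted p = 0.00592 in edgeR), and 1 lower, Bhlhe41, a clock repressor that fell from 1.98 ± 0.637 to 0.497 ± 0.298 CPM (edgeR adjusted p = 0.0385). The list median was 0.20. With single libraries left out 1 gene of this list was higher and 0 to 1 lower, and Bhlhe41 passed in 1 of those 6 fits. With no filter on low counts 0 were lower.

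The steroid hormone receptors did not pass. Nr3c1 encodes the glucocorticoid receptor. It was at 89.8, 108.2 and 103.5 CPM in CSAA and 114.9, 143.8 and 121.8 CPM in CDAA, without overlap (log2 change 0.34 ± 0.12, adjusted p = 0.106 in edgeR). Nr3c2, the mineralocorticoid receptor, was at 12.3 to 20.3 and 18.3 to 24.5 CPM, Esr1, oestrogen receptor alpha, at 13.9 to 20.5 and 15.8 to 20.7 CPM, and Esrra, the oestrogen-related receptor of mitochondrial genes, at 31.2 to 35.1 and 32.7 to 37.6 CPM. Of 11 tested glucocorticoid targets 2 were higher and 1 lower (median 0.36). Pck1, which controls gluconeogenesis, rose by 0.55 ± 0.13 and Tsc22d3, an anti-inflammatory leucine zipper protein, by 0.93 ± 0.24 on the log2 scale, while Mt1, a metallothionein, fell from 15.3 ± 3.47 to 3.73 ± 1.89 CPM (log2 change -2.03 ± 0.37, adjusted p = 0.0112 in edgeR). Its neighbour Mt2 is listed at 0 in all 6 libraries.

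The immediate early receptor Nr4a1, NUR77, which responds within minutes to stimuli such as stress hormones, held 45.8, 43.6 and 44.9 CPM in CSAA. The CDAA libraries held 19.2, 42.0 and 16.9 CPM, and only replicate 2 came close to the CSAA livers. The log2 fold change was -0.78 ± 0.31 (edgeR adjusted p = 0.131), and without CDAA replicate 2 it was -1.31 and passed (edgeR adjusted p = 0.00759). Nr4a2, NURR1, held 2.61 to 5.34 CPM in CSAA and 2.84 to 4.08 CPM in CDAA. Of 9 other immediate early genes 1 was higher, Egr1, a zinc finger factor (log2 change 1.66 ± 0.39, adjusted p = 0.0294 in edgeR), and 1 lower, Atf3, a stress-induced factor (log2 change -1.54 ± 0.41, adjusted p = 0.0422 in edgeR), with a median of 0.20. The median was -0.22 without CDAA replicate 2, -0.10 with library size alone and -0.03 with limma, and single libraries left out gave 0 to 2 higher and 0 to 1 lower.

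Nr2c1, Nr2c2, Nr2f2 and Nr2f6, the other orphan receptors, did not pass. Nr2c1, TR2, was at 14.5, 17.2 and 13.9 CPM in CSAA and 20.3, 18.7 and 19.7 CPM in CDAA, without overlap and without passing (log2 change 0.36 ± 0.13, adjusted p = 0.0964 in edgeR). Nr2c2, TR4, was at 18.0 to 27.5 and 21.4 to 28.4 CPM. Nr2f2, COUP-TFII, a receptor of venous endothelium and mesenchyme, held 38.2 to 44.5 CPM in CSAA and 33.6 to 37.6 CPM in CDAA without overlap (log2 change -0.21 ± 0.10, adjusted p = 0.207 in edgeR). Nr2f6, EAR2, was at 31.3 to 37.2 and 28.5 to 38.5 CPM. The span of Nr2c2 overlaps Mrps25 by 4770 bases, that of Nr2f6 overlaps Ocel1 by 5239 bases and that of Esrra overlaps Trmt112 by 73 bases, each on the opposite strand.

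Ordered by level per kb, which allows genes of unequal length to be set side by side, the receptors spanned 1553-fold from Hnf4a to Vdr among those tested. Hnf4a averaged 154.5 CPM per kb over the 6 libraries and Rxra 77.1, and these 2 genes held 36.2% of the summed level of the 35 receptors. Nr1h4 (60.3), Nr1h3 (40.9), Ppara (39.1), Nr0b2 (36.6) and Nr1d1 (36.4 CPM per kb) followed, and the first 7 together held 69.5%. The libraries of Hnf4a (126.4 to 205.9) did not overlap those of Rxra (60.3 to 93.0), whereas Rxra overlapped Nr1h4 (48.4 to 73.8) and Nr1h3 (38.4 to 46.0), Ppara (30.4 to 52.1), Nr0b2 (20.4 to 79.7), Nr1d1 (26.3 to 47.8) and Nr1i2 (26.4 to 46.1 CPM per kb) overlapped each other. At the low end Rarb averaged 0.499, Hnf4g 0.143 and Vdr 0.0995 CPM per kb. Nr6a1 at 1.36, Rara at 4.89 and Thrb at 6.59 CPM per kb, the genes that passed, ranked 30th, 21st and 18th of the 35.

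**Figure D3:**
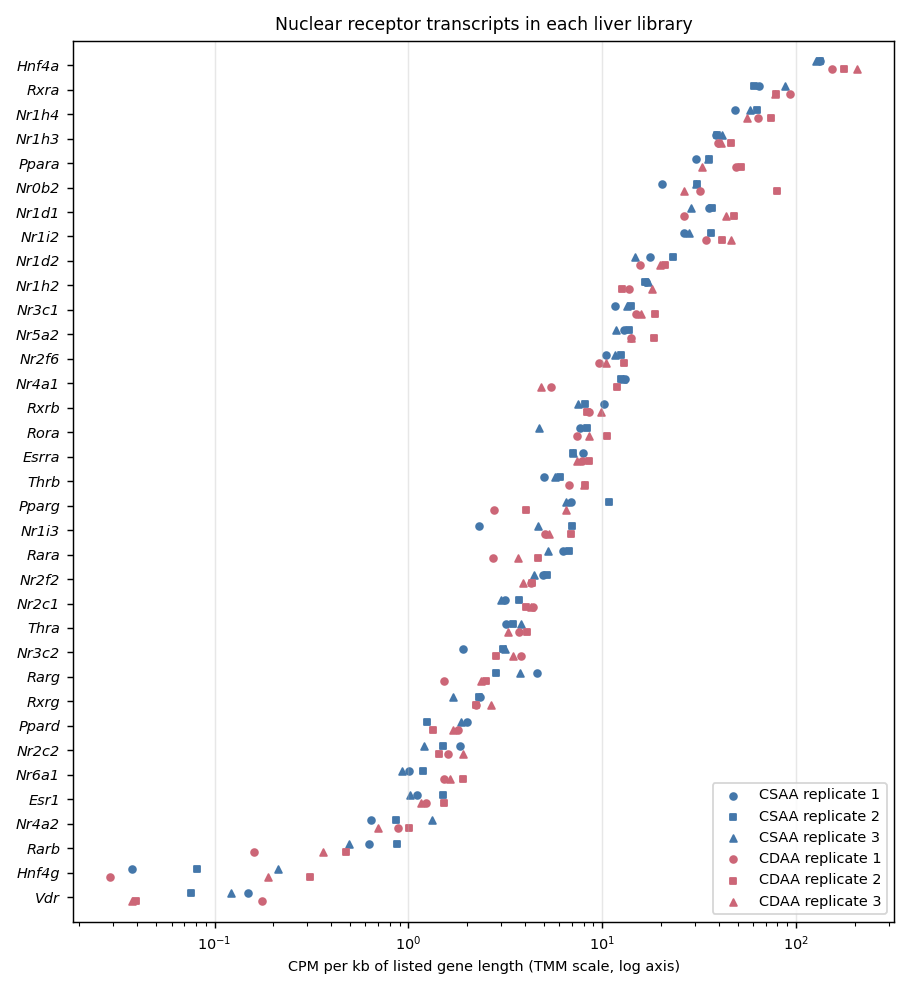
Level of the 35 nuclear receptor genes in each library, as CPM per kb of listed gene length on a log axis, ordered by their mean, with CSAA in blue and CDAA in red and the marker shape giving the replicate. Hnf4a (126.4 to 205.9 CPM per kb) stands above all others, and for most genes the colours mix.

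Partners and ligand enzymes were read from further lists. Of 20 coregulators 1 was higher, Lpin1, a coactivator of PPAR alpha and a phosphatidate phosphatase, which rose from 74.5 ± 33.0 to 246.2 ± 123.2 CPM (log2 change 1.72 ± 0.40, adjusted p = 0.0263 in edgeR), and the other 19 did not pass (median 0.08). Of 9 tested genes of ligand metabolism 3 were higher and 0 lower (median 0.59), beside 4.25% of all genes higher. Srd5a1, steroid 5-alpha-reductase, rose by 1.01 ± 0.14 (edgeR adjusted p = 0.00437), Cyp27a1, sterol 27-hydroxylase, by 0.76 ± 0.12 (edgeR adjusted p = 0.00669) and Cyp2r1, vitamin D 25-hydroxylase, by 0.62 ± 0.15 on the log2 scale (edgeR adjusted p = 0.0315). Of the 14 superfamily genes outside the set 7 were tested and 0 passed in edgeR, 0 in DESeq2 and 0 in limma, while 1 had an unadjusted p under 0.05. Nr2e1, Nr2e3, Esr2, Nr5a1 and Nr0b1 had no read in any library. On library size alone, without TMM scaling, 3 reads correspond to 0.173 to 0.206 CPM.

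How firmly the calls stand depends on the fit. Fold changes of Nr6a1, Thrb and Rara kept their sign in all 14 other fits, and each of the 3 missed the threshold in at least 3 fits that left out 1 library. Without CSAA replicate 1, 0 receptors passed in edgeR, beside 4.98% of all genes, and 5 had an unadjusted p under 0.05 (14.7%), beside 22.8% of all genes. Without CSAA replicate 3, 0 receptors passed in edgeR, beside 9.60% of all genes, and 9 had an unadjusted p under 0.05 (26.5%), beside 28.4% of all genes. Without CDAA replicate 3 the receptors that passed were Nr6a1, Ppara and Pparg, beside 16.4% of all genes. The counts over the lists of targets moved as well. DESeq2 called 4 LXR, 4 FXR, 4 thyroid hormone, 3 glucocorticoid and 4 HNF4 alpha targets and 5 ligand metabolism genes higher. In that fit 21.4% of all tested genes passed in either direction. With library size alone 1 FXR, 0 glucocorticoid and 1 HNF4 alpha targets were higher, 3 LXR targets were lower, and the medians of the FXR targets (-0.08), of the clock and REV-ERB targets (-0.08) and of the coregulators (-0.20) were negative. Glucocorticoid targets called higher fell from 2 to 0 in 5 of the 6 fits that left out a library, the exception being CDAA replicate 3. Of the 28 genes called in the lists of targets, partners and enzymes and ranked among the first 3 of a direction, 10 passed in all 6 fits that left out a library (Lpl, Scd1, Abcg1, Tgm2, Me1, Mt1, Mttp, Elovl3, Srd5a1 and Cyp27a1) and 18 did not.

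**Figure D4:**
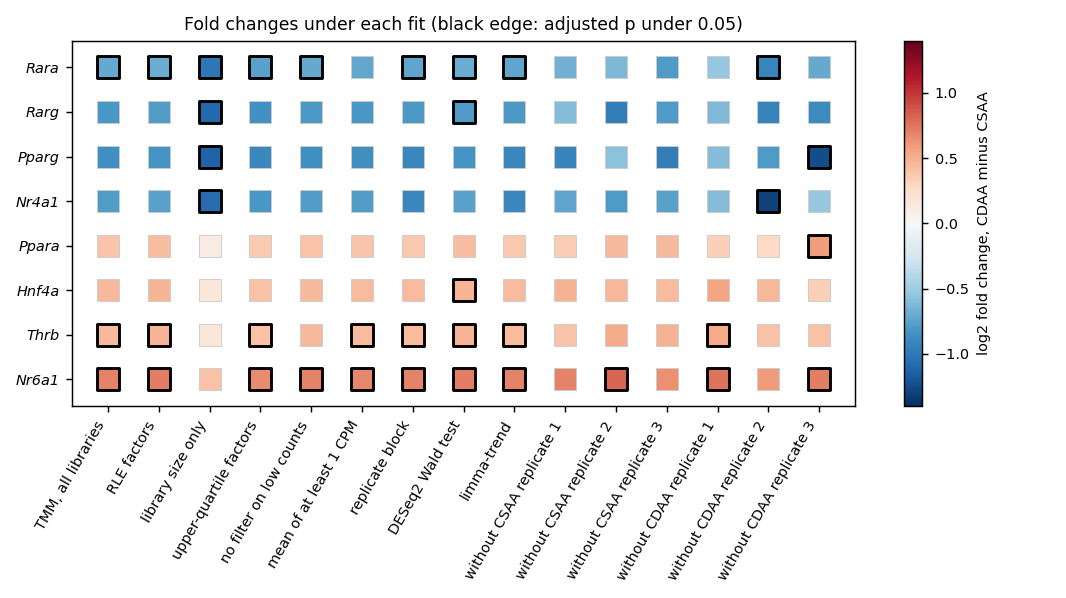
Log2 fold change (colour, CDAA minus CSAA) of 8 receptor genes under each fit, with a black edge where the adjusted p was under 0.05. Nr6a1, Thrb and Rara passed in most scalings, Ppara and Pparg passed without CDAA replicate 3, and Nr4a1 passed without CDAA replicate 2.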

How the data were processed

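Each deposited file holds 1 liver library with whole-number read counts per gene, not normalized by the authors, and FPKM, per the file headers. FPKM equalled the count scaled by listed gene length and library total in all 131394 values within a relative tolerance of 0.001, and served only as an alternative for isotype shares. The submitters' processing notes name HTSeq 0.9.1, HISAT2 2.0.5, DESeq 1.30.0, cutadapt 1.15 and the builds mm9 and mm10. What each was used for, and the strand setting, is not given in the sources used here.

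Deposited counts were fitted with edgeR 4.0.16 in R 4.3.3 (filterByExpr, TMM, glmQLFit, glmQLFTest), CDAA against CSAA, with Benjamini-Hochberg adjustment over all 12845 genes kept and a threshold of 0.05. The standard error is the fold change over the square root of F, and 95% intervals use its t distribution. Levels are CPM on TMM-scaled totals, and per-kb levels divide these by listed gene length. Alternatives included DESeq2 1.42.0 and limma 3.58.1. The fit was tested on simulated data. The rule for the members uses gene symbols and no measured value, but the members and the 23 gene lists were chosen with earlier results of these data known, so no count over a list is independent evidence, and no set test was run. From each list the text names up to 3 genes called in each direction with the smallest adjusted p, and named promoter windows come from RefSeq. Some genes that this rule names are not reported here. Floors of 3 reads cover counting error only, while the 95% intervals rest on the spread between livers.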

Additional observations from a re-analysis of the deposited data

How the results depend on the processing

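The number of receptors called higher (2) and lower (1) rests on small margins. Library size only gave 0 higher and 5 lower (Pparg, Rarg, Nr4a1, Nr2f2 and Rara), beside 22.4% of all genes called. No filter on low counts gave 1 higher (Nr6a1), a mean of at least 1 CPM gave 0 lower, and DESeq2 gave 2 lower (Rara and Rarg) and 3 higher, Hnf4a among them. The shares of all genes called were 10.2% with no filter, 14.2% with a mean of at least 1 CPM and 21.4% with DESeq2. Leaving out single libraries gave 0 to 2 higher and 0 to 2 lower receptors, beside 4.98% to 16.4% of all genes called. Over all genes 546 were higher and 1355 lower. Library size only gave 137 and 2745, and DESeq2 gave 1117 and 1627. Over all genes, leaving out single libraries gave 76 to 688 higher and 568 to 1456 lower. Of 475 refitted fold changes of single receptors, 422 kept direction and side of the threshold, 17 lost and 9 gained the call and 27 changed sign, all 27 of receptors that had not passed. Of these, 12 came with library size only, which moved the median of all genes by -0.28, 1 with upper-quartile factors and 14 with a library left out. The cause of the other changes was not tested.

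Signs changed with library size only for Esr1 (-0.18), Thra (-0.20), Nr1d1 (-0.066), Nr1d2 (-0.26), Nr1h3 (-0.20), Nr1h4 (-0.094), Rxra (-0.035), Rxrb (-0.24), Rxrg (-0.13), Nr2c2 (-0.17), Esrra (-0.19) and Nr5a2 (-0.011), and with upper-quartile factors for Nr1d2 (-0.0088). Leaving out single libraries gave ranges across 0 for Esr1 (-0.015 to 0.30), Ppard (-0.25 to 0.080), Nr1d2 (-0.090 to 0.24), Rxrb (-0.029 to 0.20), Nr2c2 (-0.0065 to 0.30), Nr2f6 (-0.20 to 0.023) and Nr4a2 (-0.32 to 0.21). In percentage points the share difference ran from -0.639 to 0.119 for Rxrg, from -5.20 to 1.37 for Rarg and from -0.0507 to 0.0304 for Hnf4a. Deposited FPKM reversed none of the 14 share differences.

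The labels give no pairing of libraries beyond the replicate number. Correlations of the deviations from the group means were 0.068, 0.124 and -0.063 for numbers 1 to 3. For libraries of unlike number they ran from -0.199 to 0.092. With 3 livers per diet these values cannot tell whether libraries of the same number were paired. With the replicate block, 2 receptors were higher and 1 lower, and over all genes 293 were higher and 1090 lower. Depth limited Vdr and Hnf4g.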
